A study of Mus musculus with 16 samples.

Results

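The genes of sterol and fatty acid synthesis were followed in the light-injured mouse retina. The list held 36 genes, chosen by symbol for their role, and 35 of them were measured among 19938 genes. The sterol genes numbered 22, with 4 regulators, 17 enzymes and the sterol carrier Stard4. The fatty acid genes numbered 11, with the regulator Srebf1, and 2 members, Abca1 and Abcg1, export cholesterol and phospholipid from cells. No transcript cluster of the array carried the symbol Acat2 (acetyl-CoA acetyltransferase) alone in the annotation used, so expression of Acat2 was not analysed here. Each value is a log2 expression value of 1 transcript cluster, the brightest by mean where a gene had several, so a step of 1 stands for a doubling, and values of different genes cannot be set against each other.

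All animals were male Balb/cJ mice, an albino strain, aged 10 weeks. The light group of 4 mice had received 10000 lux of cool white fluorescent light over 18 hours and was killed 4 hours after the light ended, and the control group of 4 mice had stayed on a 12-hour light and dark cycle. Each of the 8 mice gave 2 arrays. The first holds RNA of its neurosensory retina (NSR), the layers of photoreceptors and neurons. The second holds RNA of its pigment epithelium (RPE), a cell sheet that supports the photoreceptors from behind, together with other cells whose markers were found in these arrays. The labels name no other agent or allele. The light dose and the loss of the dark phase came together and cannot be told apart. The comparisons ask which transcripts change after photic injury in either tissue.

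Cells make cholesterol from acetyl-CoA through the mevalonate pathway, then squalene and lanosterol, and the late enzymes turn lanosterol into cholesterol. The transcription factor SREBP2, made from Srebf2, drives most of these genes. When membrane sterol is high, the Insig proteins hold SREBP and its escort Scap in the endoplasmic reticulum, and when sterol is low, SREBP is cut and enters the nucleus. SREBP1, made from Srebf1, acts more on fatty acid synthesis, and LXR, a receptor for oxidised sterols, raises Srebf1, Abca1 and Abcg1. The RPE takes up lipid-rich outer segment membrane from the photoreceptors every day and also takes up and exports cholesterol.

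Bases before the annotated gene start are shown for 5 sterol genes that fell together in the RPE after light, Hmgcs1, Idi1, Mvd, Cyp51 and Msmo1, and for the 2 that rose in the NSR, Pmvk and Ebp. Each stretch holds the last 150 bases before the start, taken 5′ to 3′ from the RefSeq window of assembly GRCm38.p6, and for Pmvk from the first of its 2 windows. Capitals mark the letters CCAAT on either strand (ATTGG on the other), the core of sites for the factor NF-Y, and in Hmgcs1 also the letters TCACNCCAC of a sterol regulatory element.

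Hmgcs1 (chr13:119690201-119690350, plus strand): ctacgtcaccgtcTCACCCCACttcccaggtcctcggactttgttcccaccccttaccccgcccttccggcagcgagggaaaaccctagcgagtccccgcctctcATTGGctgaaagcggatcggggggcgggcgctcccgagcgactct

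Idi1 (chr13:8885456-8885605, plus strand): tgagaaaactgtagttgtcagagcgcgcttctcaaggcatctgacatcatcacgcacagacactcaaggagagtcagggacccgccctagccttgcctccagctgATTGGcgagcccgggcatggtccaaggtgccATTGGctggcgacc

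Mvd (chr8:122443423-122443572, minus strand): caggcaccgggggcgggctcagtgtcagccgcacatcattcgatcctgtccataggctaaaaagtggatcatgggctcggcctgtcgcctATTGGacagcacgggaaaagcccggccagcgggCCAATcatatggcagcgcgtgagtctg

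Cyp51 (chr5:4104698-4104847, minus strand): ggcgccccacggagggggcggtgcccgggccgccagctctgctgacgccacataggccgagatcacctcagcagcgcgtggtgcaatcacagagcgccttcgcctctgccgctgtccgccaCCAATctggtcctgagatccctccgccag

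Msmo1 (chr8:64733579-64733728, minus strand): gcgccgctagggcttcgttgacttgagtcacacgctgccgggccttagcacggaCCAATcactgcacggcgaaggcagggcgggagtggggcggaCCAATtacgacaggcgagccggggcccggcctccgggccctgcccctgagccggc

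Pmvk (chr3:89454391-89454540, plus strand): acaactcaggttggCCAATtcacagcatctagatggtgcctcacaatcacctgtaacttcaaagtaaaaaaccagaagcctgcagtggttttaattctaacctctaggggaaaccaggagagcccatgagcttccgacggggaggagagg

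Ebp (chrX:8193513-8193662, minus strand): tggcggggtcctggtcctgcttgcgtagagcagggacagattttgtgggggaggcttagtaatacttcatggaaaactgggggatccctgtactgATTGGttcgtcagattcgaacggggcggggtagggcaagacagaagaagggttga

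RefSeq windows of 300 bases, 250 before and 50 after the start, were found for 28 members, with 36 windows in all. These include Acat2, whose expression was not measured. No window was found for Fdps, Fdft1, Sqle, Stard4, Scd1, Scd2, Fads1 and Abcg1, so the genes differ from those of the expression results. The letters CCAAT stood in 68.0% of the 25 windows of sterol genes, in 50.0% of the 10 windows of fatty acid genes and in 37.4% of all 32851 windows. The Sp1 letters GGGCGG stood in 84.0%, 40.0% and 35.7% of them, with both strands read in each case. The sterol element letters TCACNCCAC were found in 1 member window, that of Hmgcs1, where they began 137 bases before the start, and in 1.24% of all windows. Matches of different motifs can share bases at their ends, and a match is a description of the sequence.

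Array medians lay between 6.38 and 6.57, and each array correlated with the others of its group at a mean of 0.987 to 0.991. Of the 8 RPE markers, the median over the list was 11.95 to 12.01 in control RPE and 5.94 to 6.16 in control NSR. Best1, a chloride channel on this list, stood at 5.67 to 5.97 in control RPE and 5.56 to 5.67 in control NSR and did not mark the tissue on this array. Trpm1, also on this list, went the other way, at 7.62 to 8.25 in control RPE and 9.73 to 9.90 in control NSR. Of the 8 markers 6 were called higher in control RPE than in control NSR and 1 lower. Rod markers were present in the RPE, with list medians of 7.99 to 8.46 in control RPE and 7.38 to 8.81 in light-exposed RPE, against 12.18 to 12.27 in control NSR. The rod median of 8.81 was that of RPE light 1, where RPE light 2, 3 and 4 had 7.38 to 7.81. RPE light 2 stood apart in markers of cornea and ciliary body, with a median of 9.99 where RPE light 1, 3 and 4 had 6.08 to 6.30. RPE control 2 had the highest lens marker median, 7.16. RPE control 1 stood apart in the genes described here. It had the lowest value of the 4 control RPE arrays for 13 of the 17 sterol enzymes, and its median over these enzymes lay 0.29 below the control mean, while the other control RPE arrays lay 0.04 to 0.10 above it. The median over all genes of RPE control 1 lay 0.01 above the control mean.

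In the RPE, 15 of the 22 sterol genes fell after light. With 3 arrays (RPE control 2 and the RPE light arrays 1 and 2) left out 10 did so. Calls over all genes, in either direction, went from 3510 to 2056 in that fit. In the fit of all RPE arrays none rose in limma (0 of 22), where 8.53% of all genes fell and 9.08% rose. At an unadjusted p under 0.05, 18 were lower and 2 higher, against 2730 and 2860 of all 19938 genes. A gene is said to have risen or fallen where its Benjamini-Hochberg adjusted p over all 19938 genes was under 0.05. The median log2 change of the 22 genes was -0.37, against -0.01 over all genes tested. The fall was seen at every stage of the pathway, from the regulators to the late enzymes. In whole tissue, fewer cells of a type and less mRNA per cell cannot be told apart.

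The regulators fell with the enzymes. Insig1, which retains the SREBP and Scap complex and is itself a target of SREBP, stood at 9.91, 10.77, 10.55 and 11.11 in the 4 control RPE arrays and at 9.09, 9.29, 9.02 and 9.15 after light. No light-exposed array reached the lowest control array, which was RPE control 1. Insig1 fell 2.73-fold (log2 -1.45, SE 0.21, adjusted p = 0.00104 in limma), the largest change among the 35 members in this comparison. Without RPE control 1 the log2 change was -1.67. Scap, the sterol-sensing escort of SREBP, stood at 10.04, 9.92, 9.92 and 9.96 in control RPE and 9.46, 9.56, 9.45 and 9.61 after light, a 1.35-fold fall (adjusted p = 0.0011). Srebf2 stood at 8.70, 8.65, 8.76 and 8.74 in control RPE and 8.46, 8.35, 8.28 and 8.39 after light, a 1.27-fold fall (adjusted p = 0.00391). The groups did not overlap for either gene. Insig2, the second retention protein, was not called (log2 -0.19, 95% interval -0.33 to -0.04, adjusted p = 0.0813), although its 4 light-exposed arrays lay below the 4 control arrays. With a trended and robust prior it was called lower (0.0241).

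Of the 6 measured mevalonate pathway genes 4 fell, where 8.53% of all genes fell in the RPE. Idi1, the isomerase that makes the reactive isoprenoid unit, stood at 9.08, 9.54, 9.52 and 9.50 in control RPE and 8.17, 8.18, 8.38 and 8.09 after light. It fell 2.31-fold (log2 -1.21, SE 0.11, adjusted p = 7.92e-05), and its second transcript cluster differed by -1.27. Hmgcs1, the synthase that opens the pathway, stood at 10.54, 11.02, 11.05 and 11.33 in control RPE and between 9.93 and 10.06 after light, a 1.96-fold fall (log2 -0.97, SE 0.14, adjusted p = 0.00103). Its control arrays spread widely while the light-exposed arrays lay close together. Mvd, a decarboxylase, stood at 7.53, 8.14, 8.26 and 8.39 in control RPE and 7.13, 7.11, 7.03 and 7.32 after light, a 1.91-fold fall (adjusted p = 0.00313). Fdps, which makes farnesyl diphosphate, fell 1.30-fold (adjusted p = 0.0217). The 2 kinases of the pathway were not called. Mvk had a log2 difference of -0.02 (95% interval -0.22 to 0.18), and Pmvk one of 0.23 (0.07 to 0.38, adjusted p = 0.0505), with its 4 light-exposed arrays above the 4 control arrays.

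Squalene and late sterol enzymes fell too, 7 of 11 measured, against 8.53% of all genes. Sqle, the epoxidase at a rate-limiting step after squalene, stood at 9.50, 9.95, 9.96 and 9.93 in control RPE and 9.15, 9.21, 8.98 and 8.94 after light, a 1.70-fold fall (log2 -0.76, SE 0.11, adjusted p = 0.0012). Cyp51, the lanosterol demethylase, stood at 8.99, 9.46, 9.53 and 9.66 in control RPE and 8.54, 8.64, 8.63 and 8.39 after light, a 1.81-fold fall (adjusted p = 0.00153). Msmo1, the methylsterol oxidase, stood at 11.06, 11.45, 11.47 and 11.46 in control RPE and 10.54, 10.56, 10.56 and 10.44 after light, a 1.78-fold fall (adjusted p = 0.000275). For these 3 genes RPE control 1 was the lowest control array, and the groups stayed apart. Tm7sf2, a sterol reductase, fell 1.42-fold, Nsdhl, a decarboxylating dehydrogenase, 1.24-fold, and Fdft1, the squalene synthase, and Sc5d, a desaturase, 1.20-fold each. The second cluster of Fdft1 differed by -0.44, against -0.27 for the one used. Stard4, which carries cholesterol between membranes, stood at 7.64, 7.76, 7.72 and 8.16 in control RPE and 6.98, 7.08, 7.28 and 6.89 after light, a 1.70-fold fall (adjusted p = 0.00183). Lss (log2 -0.37, adjusted p = 0.0751), Hsd17b7 (-0.32, 0.13), Dhcr7 (-0.16, 0.425) and Ebp (0.28, 0.122) were not called, and their groups overlapped.

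Among the fatty acid genes of the RPE, 5 of 11 fell and 0 rose, where 8.53% of all genes fell and 9.08% rose. At an unadjusted p under 0.05 in limma 7 were lower and 0 higher, against 2730 and 2860 of all 19938 genes. The median log2 change of the 11 genes was -0.21. The 5 that fell were Srebf1, the elongase gene Elovl6 and the desaturase genes Scd1, Scd2 and Fads1. Elovl6, which elongates palmitate, stood at 10.48, 10.45, 10.48 and 10.71 in control RPE and 9.77, 9.48, 9.36 and 9.56 after light, a 1.98-fold fall (log2 -0.99, SE 0.10, adjusted p = 0.000119). Scd2, a desaturase that makes oleate, stood at 10.88, 11.01, 11.08 and 11.12 in control RPE and 10.49, 10.36, 10.03 and 10.53 after light, a 1.59-fold fall (adjusted p = 0.00205). Scd1, the related desaturase, stood at 8.20, 8.95, 9.18 and 8.91 in control RPE and 8.14, 8.47, 7.83 and 8.13 after light (1.59-fold lower, adjusted p = 0.0451). Its groups overlapped because RPE control 1 lay below RPE light 2. Srebf1 stood at 8.62, 8.54, 8.66 and 8.61 in control RPE and 8.20, 8.25, 7.89 and 8.40 after light, a 1.34-fold fall (adjusted p = 0.0151), and Fads1, a desaturase of polyunsaturated fatty acids, fell 1.26-fold (adjusted p = 0.0273). The core enzymes that build palmitate were not called: Acly, which supplies acetyl-CoA, had a log2 difference of -0.02 (95% interval -0.24 to 0.21), Acaca, the carboxylase, 0.05 (-0.11 to 0.22), and Fasn, the synthase, -0.09 (-0.27 to 0.09). Lpin1, a phosphatidate phosphatase (log2 -0.21, adjusted p = 0.0639), Fads2 (-0.21, 0.14) and Elovl5 (0.13, 0.197) were not called either, though their groups did not overlap. Lpin1 was called lower after quantile normalization (0.031) and with dim genes left out (0.0467). RPE light 3 had the lowest value of the 4 light-exposed arrays for 8 of the 11 fatty acid genes. Of the exporters, Abca1 fell 1.33-fold (8.89 to 9.26 in control RPE, 8.47 to 8.76 after light, adjusted p = 0.0133), and Abcg1 was not called (log2 0.04, 95% interval -0.19 to 0.27).

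**Figure D1:**
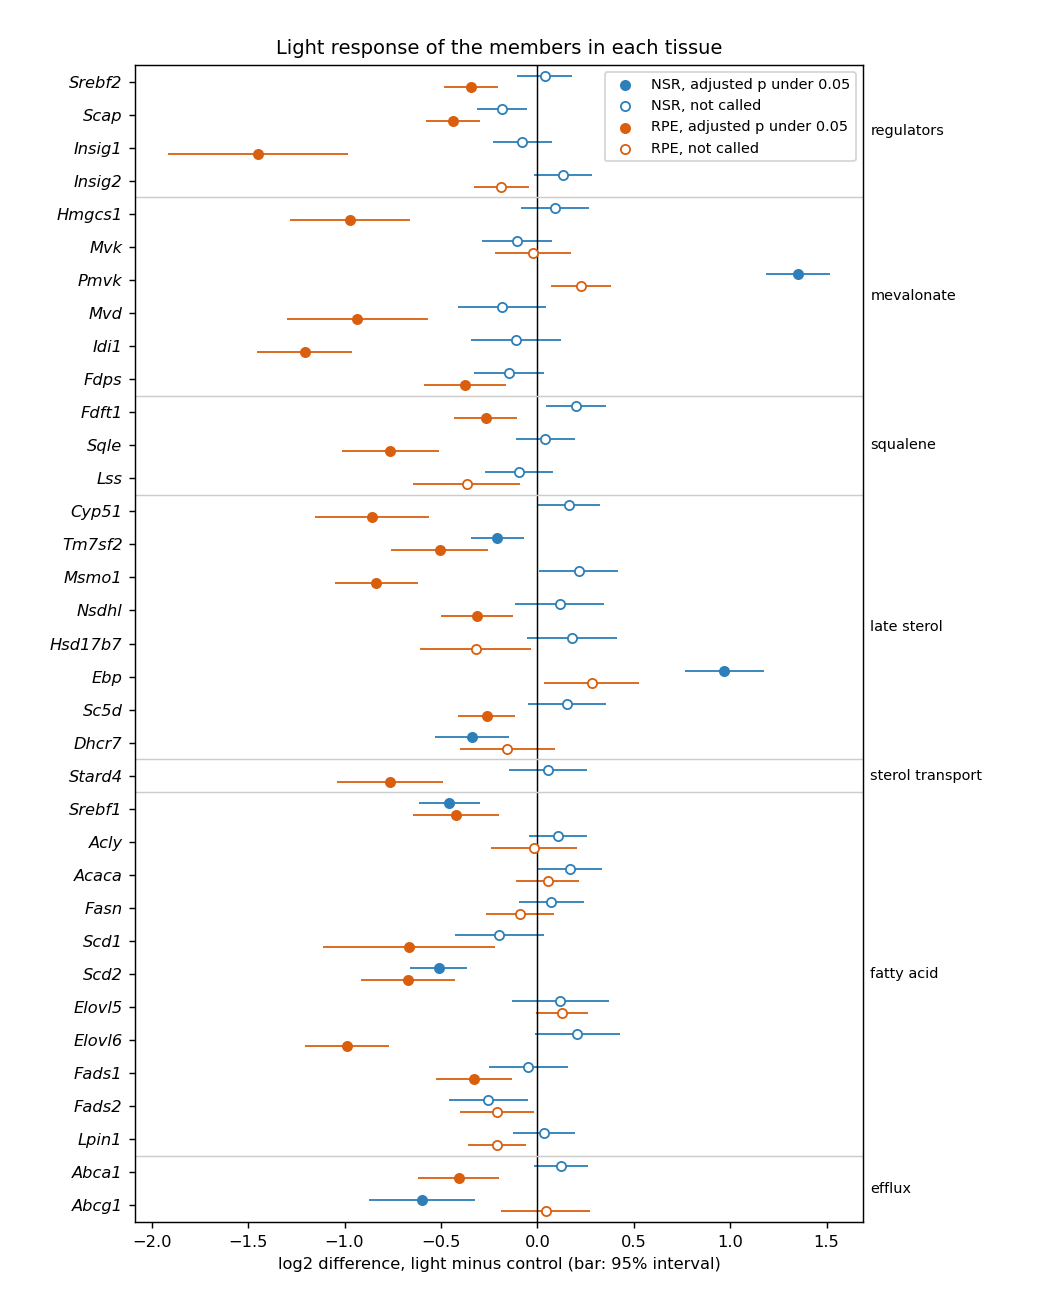
Log2 difference of light minus control for the 35 members in the NSR and the RPE, ordered by role, with 95% intervals from limma (n = 4 arrays per group) and filled points for an adjusted p under 0.05. In the RPE 21 members lie lower and called, led by Insig1 at -1.45, and in the NSR Pmvk at 1.35 and Ebp at 0.97 lie far to the right of the rest.

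In all, 21 of the 35 members fell in the RPE and 0 rose, where 17.6% of all genes were called in either direction. For 23 members all light-exposed arrays lay below all control arrays and for 2 above (10.9% and 11.3% of all genes, 22.1% together). Without RPE control 1 the count of members that fell was again 21, with Lss (adjusted p = 0.00829) and Hsd17b7 (0.017) added and Sc5d (0.0593) and Fads1 (0.0597) lost. With RPE control 2, RPE light 1 and RPE light 2 left out together, 3 control and 2 light-exposed arrays remained. In that fit 13 members fell, 10 of them among the 22 sterol genes and 2 among the 11 fatty acid genes. Calls over all genes there went from 3510 to 2056. The calls of Mvd (log2 -0.89, adjusted p = 0.0695), Fdps (0.214), Fdft1 (0.231), Nsdhl (0.181), Sc5d (0.26), Srebf1 (0.0883), Scd1 (0.123) and Fads1 (0.086) were lost. Insig1 (log2 -1.44), Hmgcs1 (-1.00), Idi1 (-1.13), Sqle (-0.84) and Msmo1 (-0.83) were among those that stayed called. The calls of 6 members were lost without single arrays, Fdft1 (adjusted p up to 0.0848), Scd1 (0.124), Fdps (0.0602), Nsdhl (0.08), Fads1 (0.0712) and Sc5d (0.0601). Fdft1 was lost without any array but RPE control 1, and Scd1 without any but RPE control 1 and RPE light 2. Fdps was lost without RPE control 2, 3 or 4 or RPE light 2 or 3, and Nsdhl without RPE control 2, 3 or 4 or RPE light 1 or 4. Fads1 was lost without any control RPE array, and Sc5d without RPE control 1 or 2 or RPE light 2. Pmvk was called higher without RPE control 4 (adjusted p = 0.0421) and Ebp without RPE light 4 (0.0137). RPE markers moved in the same comparison: their list median was 11.49 to 11.75 after light, and 3 of 8 fell and 0 rose (median log2 change -0.30). Of 4 melanocyte markers 3 fell (median -0.57), and of 5 cone markers 3 fell (median -0.71). Of 4 neutrophil markers 2 rose (median 0.20). Among the macrophage markers, Cd68 went from 7.48 to 8.02 in control RPE to 10.31 to 11.29 after light, and Csf1r from 10.09 to 10.35 to 8.69 to 9.29. The median change of 5 fat cell markers was -0.02, and Adipoq, which defines fat cells, was at 4.32 to 4.60 in control RPE and 4.41 to 4.53 after light. The part of the RPE, melanocyte, cone, rod, neutrophil, macrophage, cornea and lens markers in these results was not tested.

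**Figure D2:**
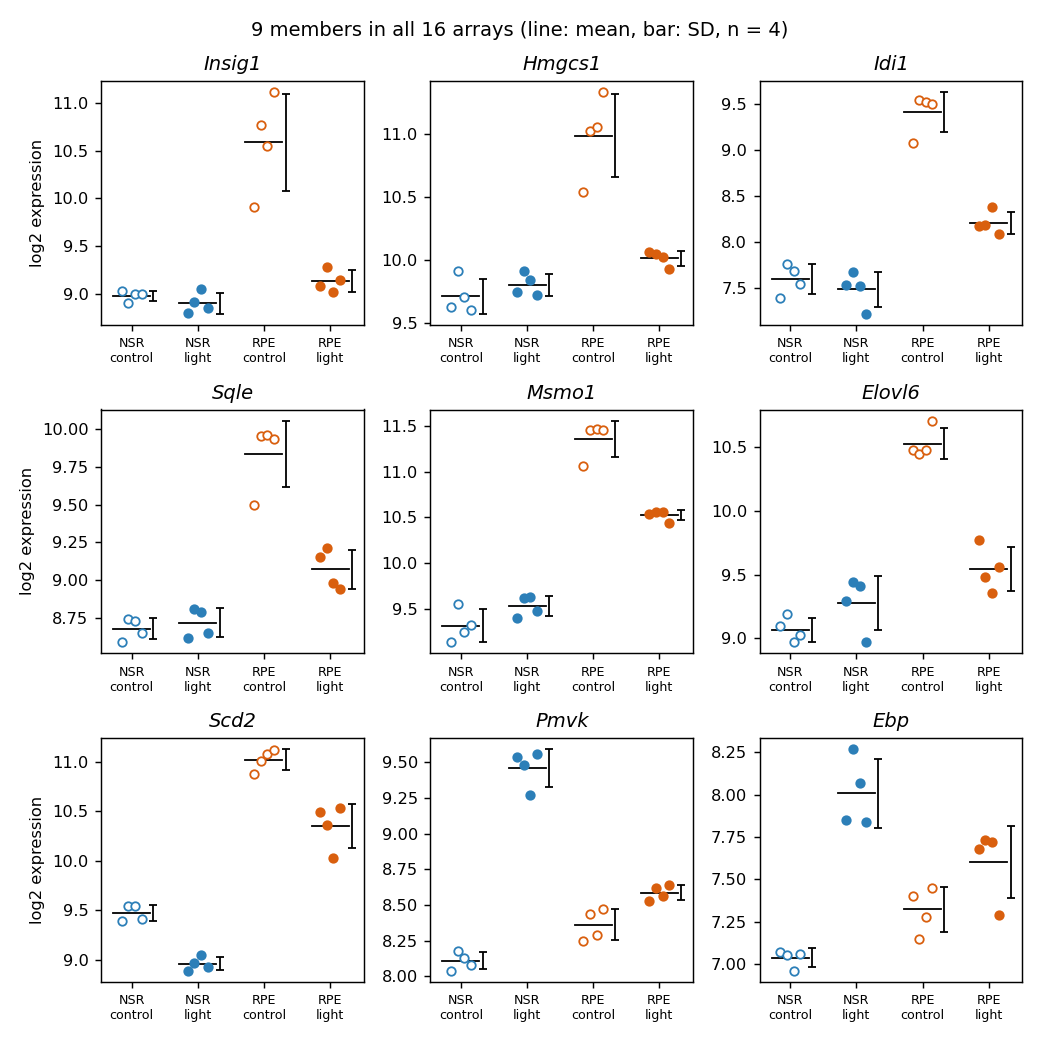
Log2 expression of 9 members in each of the 16 arrays by group, with control arrays as open and light-exposed arrays as filled points, a line at the mean and a bar for the SD (n = 4). Insig1, Hmgcs1, Idi1, Sqle, Msmo1, Elovl6 and Scd2 are lower in all light-exposed than in all control RPE arrays, whereas Pmvk and Ebp are higher in all light-exposed than in all control NSR arrays.

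In the neurosensory retina 2 of the 22 sterol genes rose and 2 fell (9.09% each). These shares are near those of all genes, of which 8.87% rose and 6.24% fell. The median log2 change was 0.05 against -0.02 over all genes. Pmvk, the phosphomevalonate kinase, stood at 8.04, 8.18, 8.13 and 8.08 in control NSR and 9.54, 9.48, 9.27 and 9.56 after light. It rose 2.55-fold (log2 1.35, SE 0.08, adjusted p = 2.33e-07 in limma). Ebp, the sterol isomerase of the late pathway, stood at 7.07, 7.05, 6.96 and 7.06 in control NSR and 7.85, 8.27, 8.07 and 7.84 after light. It rose 1.96-fold (log2 0.97, SE 0.09, adjusted p = 2.17e-05). For both genes every light-exposed NSR array lay above every control NSR array. This held for 2 members, and for 6 members all light-exposed arrays lay below (10.7% and 9.97% of all genes, 20.7% together). Of the 35 members 2 rose and 5 fell in the NSR, where 15.1% of all genes were called.

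Other enzymes next to Pmvk and Ebp in the pathway were not called or fell. Mvk, the kinase before Pmvk, had a log2 difference of -0.10 (95% interval -0.29 to 0.08), and Mvd, the decarboxylase after it, one of -0.18 (-0.41 to 0.05). Hsd17b7, which acts before Ebp, had 0.18 (-0.05 to 0.41), and Sc5d, which acts after it, 0.15 (-0.05 to 0.36). Dhcr7, the last reductase before cholesterol, stood at 7.32, 7.28, 7.29 and 7.08 in control NSR and 6.70, 6.91, 7.08 and 6.94 after light, a 1.26-fold fall (adjusted p = 0.0229). NSR light 3 and NSR control 4 nearly met. Tm7sf2 stood at 6.69 to 6.80 in control NSR and 6.44 to 6.58 after light, a 1.15-fold fall (adjusted p = 0.0449). The call of Tm7sf2 was lost without any 1 of the 8 arrays (adjusted p 0.0591 to 0.115). The call of Dhcr7 was lost without NSR control 1, 2 or 3 or NSR light 1 or 2 (0.0517 to 0.0651).

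Of the 21 members that fell in the RPE, 18 were not called in the NSR, where 15.1% of all genes were called. The count is near what that share gives. Insig1 lay between 8.91 and 9.03 in control NSR and stood at 8.80, 8.92, 9.06 and 8.86 after light, with a 95% interval of the log2 difference of -0.23 to 0.08. For Hmgcs1 the interval was -0.09 to 0.27, for Idi1 -0.34 to 0.12, and for Sqle -0.11 to 0.19. For Cyp51 (log2 0.16, adjusted p = 0.176) and Msmo1 (0.21, 0.158) the values lay above 0, with lower ends of the interval at 0.0006 and 0.0093. None of the 4 regulators was called in limma. At an unadjusted p under 0.05, 0 were higher and 1 lower, against 2919 and 2688 of all 19938 genes. The lower one, Scap, had a log2 difference of -0.18 (adjusted p = 0.058) with no overlap of the arrays. Msmo1 was called higher without NSR control 2 (log2 0.30, adjusted p = 0.04). For Fdft1 the 2 transcript clusters differed in sign, 0.20 for the one used and -0.08 for the other.

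Fatty acid and export genes of the NSR that were called all fell. Of 11 fatty acid genes 2 fell and 0 rose, where 6.24% of all genes fell and 8.87% rose. At an unadjusted p under 0.05 in limma 3 were lower and 1 higher, against 2688 and 2919 of all 19938 genes. Scd2 stood at 9.39, 9.54, 9.54 and 9.41 in control NSR and 8.89, 8.97, 9.05 and 8.93 after light, a 1.43-fold fall (log2 -0.51, SE 0.07, adjusted p = 0.000234). Srebf1 stood at 7.83, 7.83, 7.91 and 7.79 in control NSR and 7.22, 7.40, 7.41 and 7.51 after light, a 1.37-fold fall (adjusted p = 0.00103). Abcg1, a cholesterol exporter, stood at 8.75, 8.60, 8.34 and 8.58 in control NSR and 8.04, 8.13, 8.13 and 7.58 after light, a 1.51-fold fall (adjusted p = 0.00683). The groups did not overlap for these 3 genes. Abca1 was not called (log2 0.12, 95% interval -0.02 to 0.26), and neither was Elovl6 (0.21, -0.01 to 0.43), which was called higher without NSR light 4 (0.31, adjusted p = 0.0213). Fads2, a desaturase of polyunsaturated fatty acids, had -0.25 (-0.46 to -0.05) and was called lower without NSR control 3 (-0.32, adjusted p = 0.0439). In all, 28 of the 35 members were not called in the NSR, with Fdft1 (0.20, adjusted p = 0.0856), Acaca (0.17, 0.172) and Scd1 (-0.20, 0.25) among the larger values. The second transcript cluster of Acaca differed by 0.0004. All 7 measured rod markers and 4 of 5 cone markers fell in the NSR, with median log2 changes of -0.58 and -1.12. Of 4 Müller glia markers 2 fell (median -0.54), with Rlbp1 at 9.69 to 9.87 in control NSR and 8.00 to 8.38 after light and Glul at 12.43 to 12.59 and 11.52 to 11.74. Aqp4 (7.55 to 7.84, then 7.42 to 7.65) and Slc1a3 (9.33 to 9.60, then 9.32 to 9.46) overlapped between the groups. The part of these markers in the falls of Scd2, Srebf1 and Abcg1 was not tested.

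**Figure D3:**
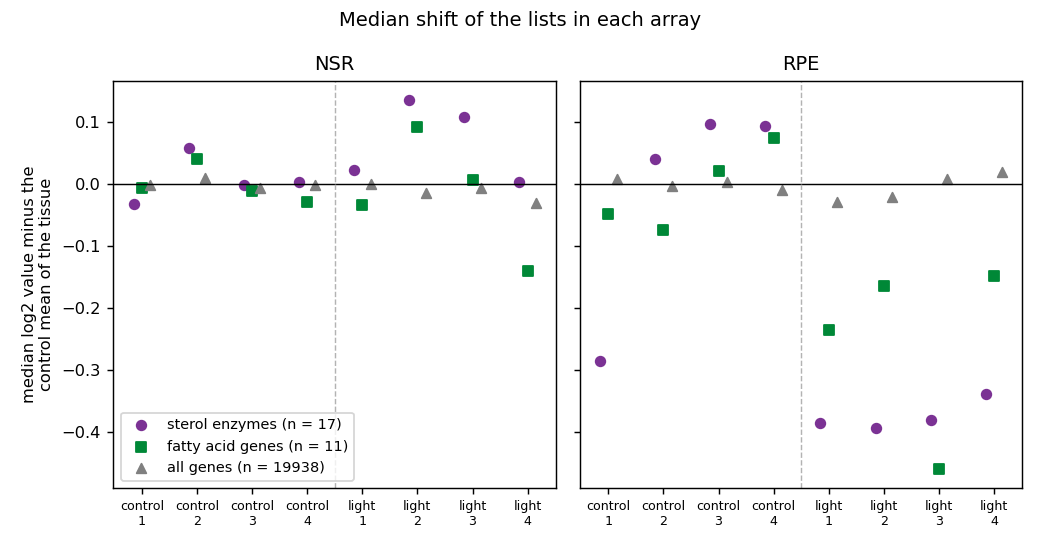
Median over a list of each array's log2 value minus the mean of the control arrays of its tissue, for the 17 sterol enzymes, the 11 fatty acid genes and all 19938 genes. In the RPE the sterol enzymes of the light-exposed arrays lie between -0.39 and -0.34, RPE control 1 lies at -0.29 apart from the other controls, and the fatty acid genes of RPE light 3 lie at -0.46.

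Whether the responses of the tissues differed was tested as the RPE response minus the NSR response in 1 fit of all 16 arrays. The difference was called for 18 of 35 members, 17 more negative in the RPE and 1 more positive, where 8.05% and 5.16% of all genes were called in these directions and 13.2% in either. Of the sterol genes 15 of 22 were more negative in the RPE, and of the fatty acid genes 1 of 11, Elovl6 (-1.19, SE 0.15, adjusted p = 2.46e-05). The largest differences among the sterol genes were those of Insig1 (-1.37, adjusted p = 0.000578), Pmvk (-1.13, 9.54e-07), Idi1 (-1.09, 0.000164), Hmgcs1 (-1.06, 0.000315), Msmo1 (-1.05, 5.75e-05) and Cyp51 (-1.02, 0.000237). For Pmvk and Ebp (-0.69, 0.00485) the difference came with a rise in the NSR, and for the other 5 genes named here with a fall in the RPE. Abcg1 differed the other way (0.64, adjusted p = 0.0205), and Abca1 by -0.53 (0.00381).

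Srebf1, Scd2 and Tm7sf2 were called lower in both tissues, and the difference between the tissues was called for none of them. Its 95% interval was -0.23 to 0.30 for Srebf1, -0.43 to 0.12 for Scd2 and -0.57 to -0.03 for Tm7sf2 (adjusted p = 0.157). The NSR and the RPE of 1 mouse share the animal. With the mouse as a block the differences of Scap (adjusted p = 0.0835) and Insig2 (0.0635) were no longer called, and that of Hsd17b7 (-0.50, 0.0167) was. The call of Scap was also lost after median centring (0.0507), after quantile normalization (0.293) and without any 1 of 9 arrays (NSR control 3 or 4, NSR light 1, 2 or 4, RPE control 1 or 4, RPE light 1 or 3), where the highest adjusted p was 0.0843. Insig2 was lost without NSR control 3, NSR light 1 or RPE control 2 (0.0507 to 0.0523) and Mvd without NSR light 3 (0.0509). Without RPE control 1 the differences of Nsdhl, Hsd17b7 (0.0137) and Scd1 (0.0234) were called, and Nsdhl was called also without NSR control 4 or NSR light 3 (0.0254 to 0.0274). Nsdhl was called too with dim genes left out (0.0461), with the trended and robust prior (0.0362) and with array weights (0.0426). Hsd17b7 was called without NSR light 1 as well (0.0461), and Tm7sf2 without RPE light 1 (0.0187). With RPE control 2, RPE light 1 and RPE light 2 left out together, the difference of Abcg1 was lost (0.56, adjusted p = 0.113). In that fit the difference of Tm7sf2 was called (-0.48, adjusted p = 0.0145).

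In control mice 32 of the 35 members were higher in the RPE than in the NSR and 3 lower, where 55.0% of all genes were called. For 30 members all RPE arrays lay above all NSR arrays and for 2 below (29.5% and 22.8% of all genes, 52.2% together). Some other marker lists differed the same way in control mice. Here 5 of 5 fibroblast and sclera markers, 6 of 6 macrophage markers and 2 of 2 Schwann cell markers were higher in the RPE. So were 4 of 4 melanocyte markers, which cannot be assigned to melanocytes or to the RPE from these arrays. Of 5 endothelium markers 1 was higher and 2 lower. Of 5 fat cell and 5 cornea and ciliary body markers 0 were called. Of 4 neutrophil and 6 lens markers 2 each were higher, and 7 of 7 rod and 4 of 5 cone markers were lower. Dcn, made by fibroblasts, was at 10.09 to 11.25 in control RPE and 5.21 to 5.84 in control NSR. The part of the cells of these lists in the tissue difference was not tested. All 22 sterol genes were called higher and 0 lower in limma, where 30.8% of all genes were higher and 24.2% lower. At an unadjusted p under 0.05 too 0 were lower, against 5131 of all 19938 genes. The median log2 difference of the 22 genes was 1.06 against 0.04 over all genes. Among the enzymes, the late-pathway genes Msmo1 (4.12-fold), Nsdhl (3.91-fold) and Hsd17b7 (3.75-fold) differed most, followed by Idi1 (3.51-fold) and Fdft1 (3.29-fold). Mvk, Pmvk and Ebp differed least, by 1.18-fold, 1.19-fold and 1.22-fold. Quantile normalization ended the call of Pmvk (log2 0.08, adjusted p = 0.396) and of Stard4 (0.26, 0.0665). The call of Mvk was lost without NSR control 2, 3 or 4 or RPE control 1, 3 or 4 (0.0502 to 0.111), that of Ebp without NSR control 2, 3 or 4 or RPE control 1 or 4 (0.0504 to 0.0943), and that of Stard4 without NSR control 2 or RPE control 4 (0.0514 and 0.0728).

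Among the fatty acid genes of control mice Fads2, Fads1 and Elovl5 differed most between the tissues. The desaturase genes Fads2, with 11.10 to 11.21 in control RPE and 8.07 to 8.44 in control NSR, and Fads1, with 10.45 to 10.52 and 7.80 to 8.07, were 7.51-fold and 5.71-fold higher in the RPE. Elovl5, which elongates polyunsaturated fatty acids, was 4.69-fold higher, and Scd2, Scd1 and Elovl6 were 2.93-fold, 2.91-fold and 2.75-fold higher. Acaca was 1.56-fold and Acly 1.26-fold higher in the NSR, whereas Fasn was 1.53-fold higher in the RPE. The second cluster of Acaca had means of 7.81 in control NSR and 7.34 in control RPE. The exporters went opposite ways, with Abca1 3.37-fold higher in the RPE and Abcg1 3.19-fold higher in the NSR.

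After light the tissues lay closer for the sterol genes. This comparison shares its arrays with the light comparisons, so it gives the same changes from another side. Of the 35 members 25 were higher and 6 lower in the RPE, where 58.0% of all genes were called. For 24 members all RPE arrays lay above all NSR arrays and for 6 below (30.3% and 21.6% of all genes, 51.9% together). Of the 22 sterol genes 15 were higher and 3 lower (34.4% and 23.6% of all genes), and the median log2 difference was 0.39. Insig1 differed by 0.23 (adjusted p = 0.244), Hmgcs1 by 0.21 (0.142), Cyp51 by 0.08 (0.58) and Tm7sf2 by 0.16 (0.138), none of them called, after 1.60, 1.27, 1.10 and 0.46 in control mice. Pmvk (-0.87), Ebp (-0.40) and Stard4 (-0.48) were now lower in the RPE. Tm7sf2 was called without RPE light 3 (0.25, adjusted p = 0.0203). The fatty acid genes kept 9 higher and 2 lower, with Fads2 at 2.95, Fads1 at 2.23 and Elovl5 at 2.24. Elovl6 (0.27, adjusted p = 0.0367) was not called with the mouse as a block (0.0593), after quantile normalization (0.10, adjusted p = 0.44) or without NSR light 1 or 4 or RPE light 1 or 4 (0.0593 to 0.153).

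**Figure D4:**
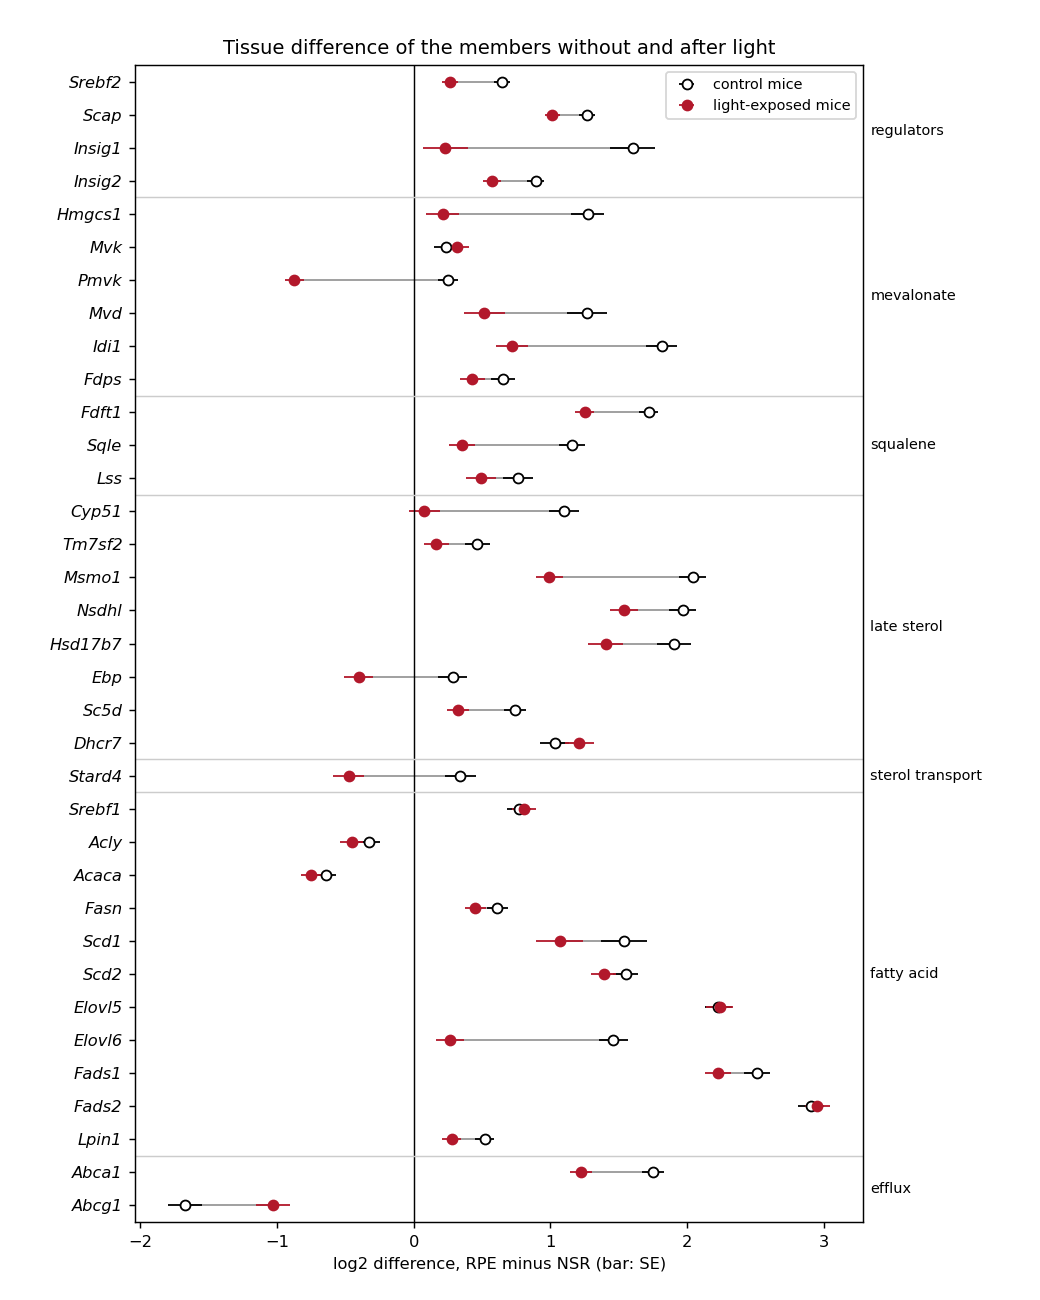
Log2 difference of RPE minus NSR for the 35 members in control mice (open points) and light-exposed mice (red points), with bars for the SE from limma. Most sterol genes lie nearer to 0 in light-exposed mice, as Insig1 moves from 1.60 to 0.23, while Fads2, at 2.91 and 2.95, and Elovl5, at 2.23 and 2.24, keep their distance.

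Members also varied between arrays of 1 group. In the RPE, deviations from the group means over 8 arrays had a median correlation of 0.48 over the 136 pairs of sterol enzymes and 0.46 over the 55 pairs of fatty acid genes. All genes of an array share its RNA sample and scaling, so these values only describe the data. Without RPE control 1 the first fell to -0.03 while the second was 0.50, so the shared variation of the sterol enzymes rested on that array. In the NSR the medians were 0.03 and 0.31.

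Other genes of the same pathways, 39 measured of 44 listed, moved both ways. In the NSR 7 rose and 11 fell (17.9% and 28.2%, against 8.87% and 6.24% of all genes), with a median log2 change of -0.03. In the RPE 7 rose and 16 fell (17.9% and 41.0%, against 9.08% and 8.53% of all genes), with a median of -0.17. Of the 18 other sterol genes 5 rose and 6 fell there (27.8% and 33.3%, median -0.16). Of the 21 other fatty acid genes 2 rose and 10 fell (9.52% and 47.6%, median -0.27). Elovl1, which elongates saturated very long fatty acids, had the largest rise in the NSR, 2.41-fold (adjusted p = 4.37e-06), and was 1.21-fold lower in the RPE (0.011). Ch25h, which makes the oxysterol 25-hydroxycholesterol, rose in both tissues, 1.87-fold in the NSR (from a mean of 5.10 to 6.01) and 1.62-fold in the RPE (5.44 to 6.14). Its control means lay in the dimmest 25% of genes, below 5.63, so the sizes of these folds are uncertain. Me1, the malic enzyme that supplies NADPH, and Vldlr, a lipoprotein receptor, fell most in the NSR, 1.81-fold and 1.61-fold. Acsl5, an acyl-CoA synthetase, rose most in the RPE, 1.74-fold, while Elovl2 and Elovl4, elongases of the very long polyunsaturated chains of photoreceptor membranes, fell most, 1.78-fold and 1.72-fold.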

How the data were processed

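The deposited values are log2 expression levels of 35556 transcript clusters (Affymetrix Mouse Gene 1.0 ST arrays). The submitters' processing notes name RMA and Partek 6.6. The log2 scale was read from the values, 2.20 to 13.84. Any probe filter is not given in the sources used. No background or batch measure entered, since the labels name none. The number of arrays limits the precision. Whether mice of a group were littermates is not stated in the labels used here.

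Gene symbols came from the platform annotation, with 21789 clusters of 1 symbol, 1621 of several and 12146 of none. Each of 19938 genes took its brightest single-symbol cluster. Idi1, Fdft1 and Acaca had a further cluster each, and which of their clusters lies at the gene itself was not tested. Tests ran in limma 3.58.1 (R 4.3.3), summaries in Python 3.11.15. Light was compared with control by lmFit and eBayes within each tissue (8 arrays), and tissues and responses in a fit of 16 arrays with 4 group means. Adjusted p-values are Benjamini-Hochberg over all genes. The fits were tested on simulated data. Of 120 pairs of arrays 0 were identical.

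All 35 measured members are covered; of 44 other pathway genes, the 2 called genes with the largest change each way per tissue are named. Members, lists and motifs were chosen with earlier results of these data known. A shared mouse identifier in the labels pairs each NSR array with an RPE array by animal; their deviations correlated between -0.01 and 0.05. Other scaling, a filter on the dimmest 25%, another prior, array weights, cluster means, blocks and left-out arrays were tried.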

Additional observations from a re-analysis of the deposited data

Results flagged for a closer look

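Single arrays stood away from the other 3 arrays of their group, by Dixon's test at its 95% critical value, in 12 of 140 gene and group pairs, and chance flags about 1 in 20. RPE control 1 was low against the other control RPE arrays for Idi1 (9.08 against 9.50 to 9.54), Sqle (9.50 against 9.93 to 9.96) and Msmo1 (11.06 against 11.45 to 11.47). RPE control 4 was high for Elovl6 (10.71 against 10.45 to 10.48) and Fads1 (10.52 against 10.45 to 10.46). RPE light 3 was low for Fads1 (9.87 against 10.20 to 10.25) and Fads2 (10.72 against 11.04 to 11.07), and RPE light 4 for Ebp (7.29 against 7.68 to 7.73). In the NSR, Ebp was low in control 3 (6.96), Dhcr7 in control 4 (7.08) and Abcg1 in light 4 (7.58), and Stard4 was high in light 1 (7.76).

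The light response differed between the tissues, by the test of RPE response minus NSR response on the log2 scale, for 18 members. It was more negative in the RPE for the regulators Srebf2 (-0.38), Scap (-0.25), Insig1 (-1.37) and Insig2 (-0.32). Among the enzymes it was more negative for Hmgcs1 (-1.06), Pmvk (-1.13), Mvd (-0.75), Idi1 (-1.09), Fdft1 (-0.47), Sqle (-0.80), Cyp51 (-1.02), Msmo1 (-1.05), Ebp (-0.69) and Sc5d (-0.42). The same held for Stard4 (-0.82), Elovl6 (-1.19) and Abca1 (-0.53), and Abcg1 (0.64) was the exception. Among these 18, Pmvk and Ebp were called in the NSR comparison as higher, and Abcg1 as lower.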

How the results depend on the processing

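No called member reversed its direction under any alternative run. All alternatives kept the calls of 5 of 7 members in the NSR, 13 of 21 in the RPE, 13 of 18 for the difference, 31 of 35 between tissues of control mice and 28 of 31 between tissues after light. In the RPE the count of members called higher was 0, and 1 (Pmvk) with dim genes left out, with the trended and robust prior, with array weights or with the mean over clusters. With RPE control 2, RPE light 1 and RPE light 2 left out together, 13 members in place of 21 were lower in the RPE, and 0 in place of 1 had a more positive response there. That fit has fewer arrays, and for the RPE light response it called 2056 of all genes in place of 3510. Leaving out 1 array at a time gave 2 to 3 members higher and 3 to 4 lower in the NSR, 0 to 1 higher and 15 to 21 lower in the RPE, and 1 more positive and 15 to 19 more negative for the difference. It gave 29 to 32 higher and 3 lower in the RPE of control mice, and 24 to 26 higher and 6 lower after light. With the replicate number as a block, which pairs different mice in the light comparisons, 4 members in place of 5 were lower in the NSR (Tm7sf2 lost, adjusted p = 0.0707) and 18 in place of 21 in the RPE (Fdft1 0.0666, Sc5d 0.0684 and Scd1 0.0572 lost). Deviations of same-numbered arrays correlated between -0.02 and 0.07. With the mouse as a block the counts between tissues changed by Elovl6 alone. Scd1 was not called in the RPE with the other prior (0.0541) or array weights (0.0536), nor Fdft1 after quantile normalization (0.0501). Scap was called lower in the NSR after median centring (0.0372), quantile normalization (0.0111), the dim filter (0.0396) or the other prior (0.0489). For the difference, quantile normalization also ended the calls of Insig2 (0.0831) and Sc5d (0.0554), and the 3 left-out arrays those of Scap (0.112), Insig2 (0.0831), Mvd (0.102) and Sc5d (0.134). After light, Sqle and Sc5d were not called between tissues after quantile normalization (0.0566 and 0.0838). The values hold no detection measure, so height above background is unknown.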
